A study of Homo sapiens with 12 samples.

Results

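The comparison described here is depletion of IPMK in cells exposed to mitomycin C (MMC): 3 arrays titled siIPMK + MMC set against 3 titled siCONTROL + MMC, which are 6 of the 12 arrays of the series and were chosen by their titles. All arrays hold cytoplasmic RNA of Cal51, an established human breast carcinoma line. Cells in the first group received an siRNA against IPMK and those in the second a control siRNA. Both were harvested 72 hours after transfection and both spent the last 24 hours in MMC, a drug that crosslinks the strands of DNA. The other 6 arrays hold the same siRNAs without MMC, in groups of 3. They are used here to show where the depletion change with MMC differed. They also enter the normalization, the choice of probes and the error estimate behind every test. The cytoplasm was released with digitonin, which opens the plasma membrane and leaves the nuclear envelope, so a low value can stand for less transcript in the cell or for less of it outside the nucleus, and these cannot be told apart here. Arrays of a group carry experiment numbers 1 to 3, nothing says that they come from separate cultures, and the labels give neither the siRNA sequence nor a second siRNA.

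IPMK, the inositol polyphosphate multikinase, phosphorylates soluble inositol phosphates and also makes the membrane and nuclear lipid phosphatidylinositol trisphosphate. The lipid binds ALYREF, an adaptor that loads mRNA onto the export receptor NXF1, and in human cells IPMK is known to promote nuclear export of a subset of transcripts. Crosslinks made by MMC block replication forks and are removed by the Fanconi anaemia proteins together with nucleases, translesion polymerases and homologous recombination, while the damage signal halts the cell cycle through checkpoint kinases. Hence the groups of genes below run from division and replication through repair and the arrest and damage signalling genes to export, and then to other compartments.

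Between 13113 and 13382 probes were detected per array in the siIPMK + MMC group, against 12468 to 12687 in the siCONTROL + MMC group, and each probe was read from a median of 20 or 21 beads. Of 9409 genes tested, 1959 rose (20.8%) and 1923 fell (20.4%) in siIPMK + MMC cells, 41.3% in all, by limma's moderated test at a Benjamini-Hochberg adjusted p under 0.05, the rule for "rose" and "fell" throughout. Among them, 430 rose (4.57%) and 301 fell (3.2%) at least 2-fold, and the 3 and 3 arrays did not overlap for 49.4% of all genes. The median log2 change over all genes was 0.01. Rises made up 50.5% of the calls with quantile normalization and 69.5% with median scaling, which moved the median of all genes to 0.14. On the first principal component of all arrays, which held 67.5% of the variance, the siIPMK + MMC array of experiment 1 lay at 11.97, between the other 2 of its group (35.2 and 38.4) and the siCONTROL + MMC arrays (-27.6 to -22.7). For many genes below it reads nearest to the siCONTROL + MMC arrays, and without experiment 1 in all groups 668 genes rose and 481 fell at least 2-fold. The epithelial and breast carcinoma markers KRT8, KRT18, KRT19, EPCAM, CD24 and CD44 were detected on all 12 arrays, as were VIM and ERBB2, while CDH1, ESR1 and PGR had no named probe among those analysed. Of 14 leukocyte markers, 2 had a named probe among those analysed and 0 were detected on all 6 arrays with MMC. For 14 fibroblast and endothelial markers the counts were 5 and 1, the last being PDGFRB. A marker without a named probe may be one that no array detected, so its absence from the chip is not shown.

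IPMK, FANCD2, BRCA2 and NXF1 were not among the genes tested here, so the depletion itself and these named genes have no value. In the text below, the 3 values of a gene are its normalized log2 signals on the arrays of experiments 1, 2 and 3, a change is the mean of the siIPMK + MMC arrays minus that of the siCONTROL + MMC arrays in log2 units, and its error is the standard error of the fit (n = 3 and 3). Changes were smaller by over 1.5 times for 30 of the 212 named genes that passed without background correction and for 56 with the authors' deposited values, and no call was lost in either. HSPA5, described below, is one of them, at -0.57 and -0.43 in that order. The share of each list that rose and fell is set against the share of all genes in the bar plot of gene lists. Counts of every list below are to be read against the 20.8% of all genes that rose and the 20.4% that fell.

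**Figure D1:**
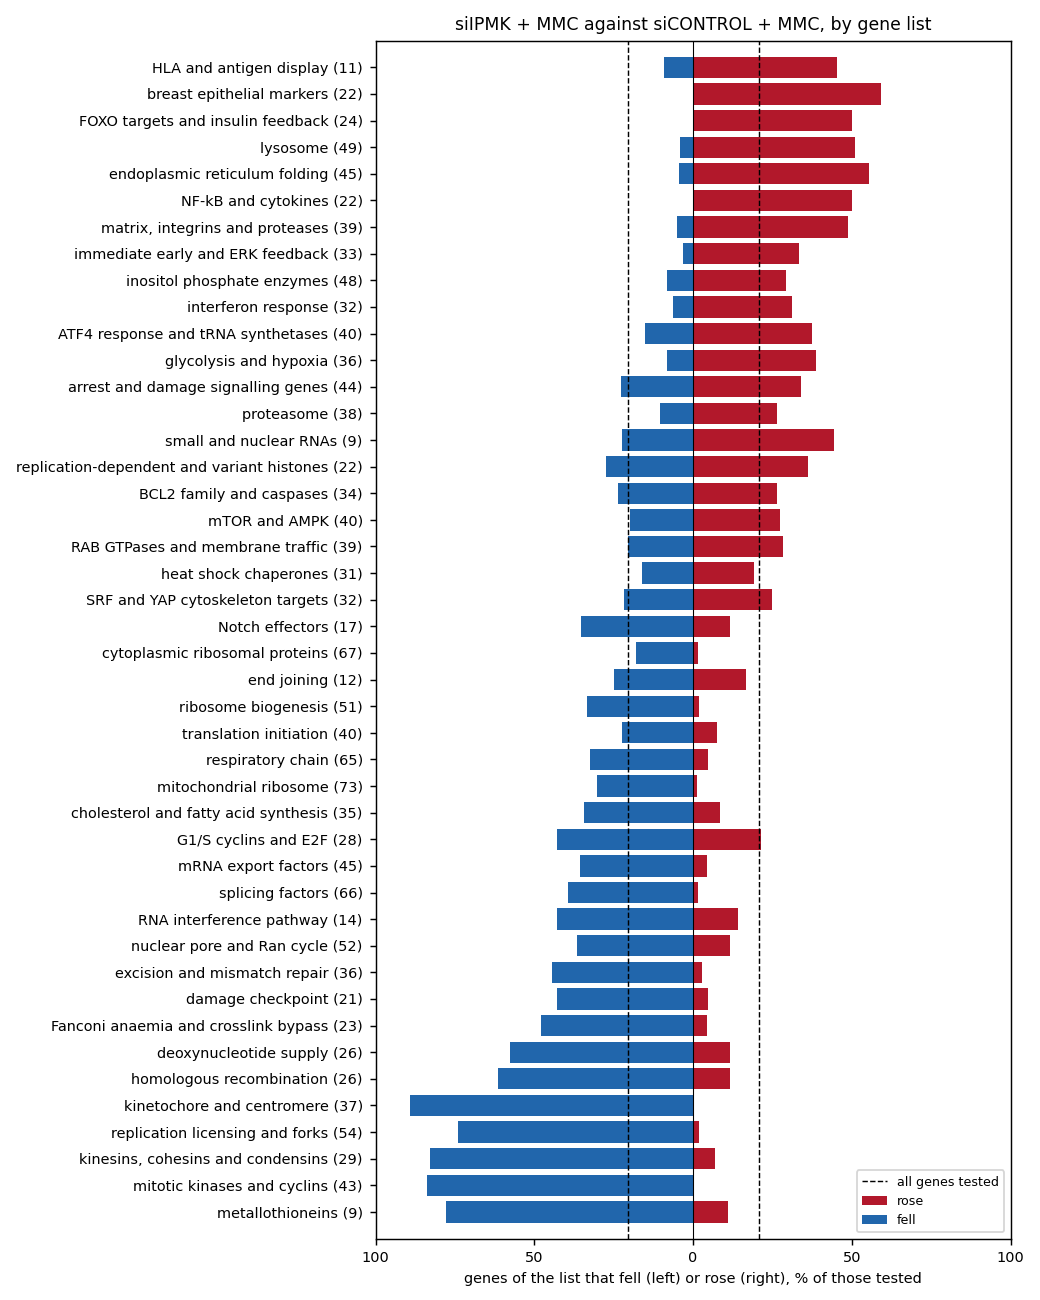
Share of the tested genes of each list that rose (bars to the right) and fell (bars to the left) in siIPMK + MMC against siCONTROL + MMC cells, in percent of the genes tested (number in brackets), ordered by the median log2 change of the list, with dashed lines at the shares over all 9409 genes, 20.8% and 20.4%. Kinetochore, mitosis and kinesin lists reach farthest to the left, and breast epithelial markers, endoplasmic reticulum and lysosome lists farthest to the right.

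Many genes of mitosis carry a cell cycle genes homology region (CHR) in the promoter, through which complexes of MuvB keep them silent outside the dividing part of the cycle. Many also hold upstream CCAAT boxes, bound by the activator NF-Y. Since most genes of the mitosis lists fell, as given below, their promoters are shown first. A CHR was searched as TTTGAA or TTCGAA and the CCAAT box as CCAAT, each on both strands, in the window from 250 bases before to 50 bases after the start of each gene (RefSeq, GRCh38.p14). Promoters were found for 90 of the 109 tested genes of the 3 mitosis lists, and 60.0% of them held a CHR, against 11.3% of the promoters of all tested genes and 16.6% of all promoters in the table. A CCAAT box stood in 62.2% of the mitosis promoters, 38.0% of those of tested genes and 35.7% of all, and both elements in 40.0%, 5.0% and 6.6%. Among 47 promoters of the replication list, in which 40 of 54 genes fell, 2.1% held a CHR. Among mitosis genes that fell, 62.3% of 77 promoters held a CHR, near the 60.0% of all tested mitosis genes. The high share thus goes with membership of these lists. Over all genes that fell, 15.5% of the promoters held a CHR, and over all that rose, 9.7%. Of the 248 promoters with a CHR among genes that fell, 48 belonged to the mitosis lists. Whether the elements bear on the falls was not tested. The 4 promoters printed are examples from detected mitosis genes that fell and hold both elements. They were picked by size of fall, but not all genes of the lists entered the choice. Mitosis genes with larger falls than those printed may therefore hold both elements too. Each printed promoter is on its gene's own strand, with CHR and CCAAT letters in capitals.
CEP55 (chr10:93496362-93496661, plus strand): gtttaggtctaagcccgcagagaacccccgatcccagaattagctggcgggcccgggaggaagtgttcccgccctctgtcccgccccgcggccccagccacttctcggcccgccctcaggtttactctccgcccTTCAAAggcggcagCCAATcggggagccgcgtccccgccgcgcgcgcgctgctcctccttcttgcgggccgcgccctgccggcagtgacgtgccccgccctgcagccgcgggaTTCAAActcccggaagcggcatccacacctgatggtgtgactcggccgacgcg
KIF4A (chrX:70289854-70290153, plus strand): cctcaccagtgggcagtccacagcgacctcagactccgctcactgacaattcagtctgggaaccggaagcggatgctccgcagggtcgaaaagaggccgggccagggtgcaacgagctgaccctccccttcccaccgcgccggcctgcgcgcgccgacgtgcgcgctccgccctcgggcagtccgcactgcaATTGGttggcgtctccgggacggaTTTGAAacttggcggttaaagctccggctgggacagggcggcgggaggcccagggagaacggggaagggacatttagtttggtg
ZWINT (chr10:56361210-56361509, minus strand): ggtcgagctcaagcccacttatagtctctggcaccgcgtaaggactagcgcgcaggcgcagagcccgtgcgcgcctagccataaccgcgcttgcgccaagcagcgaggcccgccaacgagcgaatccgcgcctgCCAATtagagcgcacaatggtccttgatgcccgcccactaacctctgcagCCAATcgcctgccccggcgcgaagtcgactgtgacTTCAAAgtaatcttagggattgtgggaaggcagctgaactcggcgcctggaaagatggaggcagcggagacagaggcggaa
CDC20 (chr1:43358731-43359030, plus strand): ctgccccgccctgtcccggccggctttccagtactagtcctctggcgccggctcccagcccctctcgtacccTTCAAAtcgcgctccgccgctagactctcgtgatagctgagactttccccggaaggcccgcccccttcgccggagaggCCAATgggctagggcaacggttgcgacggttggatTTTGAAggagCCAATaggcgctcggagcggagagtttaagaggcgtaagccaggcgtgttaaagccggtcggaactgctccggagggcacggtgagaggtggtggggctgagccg

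Genes that drive mitosis fell in siIPMK + MMC cells: 36 of 43 tested mitotic kinases, cyclins and partners fell and 0 rose, with a median log2 change of -0.75. Fewer cells in a phase of the cycle and less RNA per cell cannot be told apart in such bulk samples. BIRC5, the survivin subunit of the chromosomal passenger complex, measured 9.86, 8.78 and 9.02 on the siIPMK + MMC arrays, against 11.33, 11.26 and 11.39 on the siCONTROL + MMC arrays, a change of -2.10 ± 0.28 (adjusted p = 0.000143). PBK, a mitotic protein kinase, measured 10.39, 9.98 and 9.98, against 11.39, 11.55 and 11.36, and fell by 1.32 ± 0.18. For CDC20, which activates the anaphase-promoting complex and whose promoter is printed above, the values were 12.64, 12.07 and 12.32 with siIPMK and 13.49, 13.43 and 13.50 with control siRNA, a change of -1.13 ± 0.16 (adjusted p = 0.000223). None of these 3 genes had overlapping groups, which held for 49.4% of all genes. For each of the 3, the highest siIPMK + MMC array was that of experiment 1. BUB3, a spindle checkpoint protein, changed by -0.78 ± 0.12 (adjusted p = 0.000318) with values of 12.72, 12.52 and 12.60 against 13.30, 13.44 and 13.43. PLK1, the polo-like kinase of mitotic entry, fell by 1.11 ± 0.22 (adjusted p = 0.00161), and CCNB1, the cyclin of mitotic entry, by 0.99 ± 0.27 (adjusted p = 0.00895). CEP55, needed for the final cut between daughter cells, measured 10.50, 9.23 and 9.49 on the siIPMK + MMC arrays and 11.23, 11.29 and 11.31 on the siCONTROL + MMC arrays. It was chosen for its promoter, and its change was -1.54 ± 0.28 (adjusted p = 0.000821).

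The machinery that ties chromosomes to the spindle also fell, with 33 of 37 kinetochore and centromere genes lower, 0 higher and a median of -0.64. SPC24, a subunit of the microtubule-binding NDC80 complex, measured 8.77, 7.94 and 7.88 in siIPMK + MMC cells, against 10.49, 10.16 and 10.39 in siCONTROL + MMC cells, a change of -2.15 ± 0.28 (adjusted p = 0.000108). CENPM, of the inner kinetochore, changed by -1.24 ± 0.17 (adjusted p = 0.000187). KNSTRN, an adaptor of the outer kinetochore and spindle, changed by -0.96 ± 0.17 (adjusted p = 0.0008). MIS18A, which licenses the loading of the centromeric histone, stood at 7.42, 6.27 and 5.85, against 9.04, 8.95 and 8.93. It was above background on 1 of the 3 siIPMK + MMC arrays, and its fitted change of -2.46 ± 0.36 (adjusted p = 0.000211) therefore rests partly on signal at the floor. Among kinesins, cohesins and condensins 24 of 29 fell and 2 rose (median -0.72). KIF4A, a chromosome-bound motor that organises the anaphase midzone, measured 8.16, 7.34 and 7.69, against 9.23, 8.86 and 9.25, a change of -1.38 ± 0.20 (adjusted p = 0.000232). KIF2C, which depolymerises microtubules at kinetochores, fell by 1.10 ± 0.17, and KIF20A, a motor of cytokinesis, by 1.04 ± 0.17. MKI67, the proliferation marker Ki-67, was above background on 0 of 3 siIPMK + MMC arrays (5.70, 5.64 and 5.93) and on 3 of 3 siCONTROL + MMC arrays (7.22, 6.97 and 7.14), so its level was at least 1.84-fold lower in siIPMK + MMC cells (adjusted p = 0.000544). Bounds of this kind set the brighter group's mean against the lowest signal of probes above background in the dimmer group, or the probe's own where that was higher. The kinetochore count depended on single arrays and on scaling, at 19 without the siIPMK + MMC array of experiment 2, 21 without the siCONTROL + MMC array of experiment 3 and 19 with median scaling.

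Replication genes fell in the same samples: of 54 that load, fire and run replication forks, 40 fell and 1 rose (median -0.65). CDT1, which loads the MCM helicase at origins, measured 9.43, 9.37 and 9.74 in siIPMK + MMC cells and 11.01, 11.25 and 11.21 in siCONTROL + MMC cells, a change of -1.65 ± 0.14 (adjusted p = 1.07e-05). POLE3, a histone-fold subunit of polymerase epsilon, measured 11.62, 10.91 and 11.07, against 12.91, 13.22 and 13.04, and fell by 1.86 ± 0.20 (adjusted p = 4.18e-05). FEN1, the flap nuclease of the lagging strand, read 11.48, 11.42 and 11.52, against 12.27, 12.30 and 12.36, all close to their group means, with a change of -0.84 ± 0.10 (adjusted p = 6.81e-05). TIMELESS, of the fork protection complex, changed by -0.74 ± 0.09 (adjusted p = 9.14e-05). PCNA, the sliding clamp, had overlapping groups at 12.64, 12.18 and 12.22 against 12.63, 12.71 and 12.66 and a change that did not pass, -0.32 ± 0.14 (adjusted p = 0.0869). It passed without the siIPMK + MMC array of experiment 1, at -0.47, over the mean of its 3 probes, at -0.50, with array weights, at -0.46, and with the replicate block.

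Supply of deoxynucleotides followed, with 15 of 26 genes lower and 3 higher (median -0.43). TK1, the thymidine kinase of dividing cells, had the largest fall among genes detected on all 6 arrays. It measured 10.01, 8.31 and 8.62 on the siIPMK + MMC arrays, against 11.95, 11.50 and 11.75 on the siCONTROL + MMC arrays, a change of -2.75 ± 0.39 (adjusted p = 0.000182). SHMT1, the cytoplasmic serine hydroxymethyltransferase that feeds thymidylate synthesis, changed by -1.78 ± 0.20 (adjusted p = 4.69e-05), or by -0.94 over all its probes. DCTPP1, which clears abnormal deoxycytidine nucleotides, changed by -0.84 ± 0.13 (adjusted p = 0.000332). RRM2, the ribonucleotide reductase subunit of S phase, changed by -0.56 ± 0.19 (adjusted p = 0.031) and lost the call with median scaling and without the siIPMK + MMC array of experiment 2 or 3 or the siCONTROL + MMC array of experiment 1 or 3, whereas RRM2B, its damage-induced counterpart, changed by -1.11 ± 0.25 (adjusted p = 0.00329). NME2, a nucleoside diphosphate kinase, went the other way, with a change of 0.67 ± 0.12 (adjusted p = 0.00084), but over the mean of its probes its change was 0.17 and did not pass. Falls numbered 9 with median scaling, and rises 1 without the siIPMK + MMC array of experiment 3.

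At the entry to S phase 12 of 28 genes fell (42.9%) and 6 rose (21.4%). Over all genes 20.4% fell and 20.8% rose, so the share of rises was near that of all genes. MYC, the transcription factor that promotes growth, measured 11.23, 11.11 and 11.21 with siIPMK and MMC, against 10.09, 9.77 and 10.15 with control siRNA and MMC, a change of 1.18 ± 0.15 (adjusted p = 9.14e-05). CCND1, cyclin D1, rose by 0.77 ± 0.14 (adjusted p = 0.00108), while CCNE1, cyclin E1, changed by -0.38 ± 0.12 (adjusted p = 0.0173), a call lost with median scaling and without the siCONTROL + MMC array of experiment 3. TFDP1, the dimerisation partner of E2F factors, changed by -0.96 ± 0.14 (adjusted p = 0.000257) and LIN52, a subunit of the MuvB complex, by -0.94 ± 0.15 (adjusted p = 0.000329). E2F2, an activator of S phase genes, changed by -0.78 ± 0.14 (adjusted p = 0.000653). Of the genes named, MYC and CCND1 were higher on every siIPMK + MMC array than on any siCONTROL + MMC array, while CCNE1, TFDP1, LIN52 and E2F2 were lower on every one. Over all genes, 49.4% had no overlap between the 3 and 3 arrays, in either direction. Falls numbered 7 with median scaling.

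**Figure D2:**
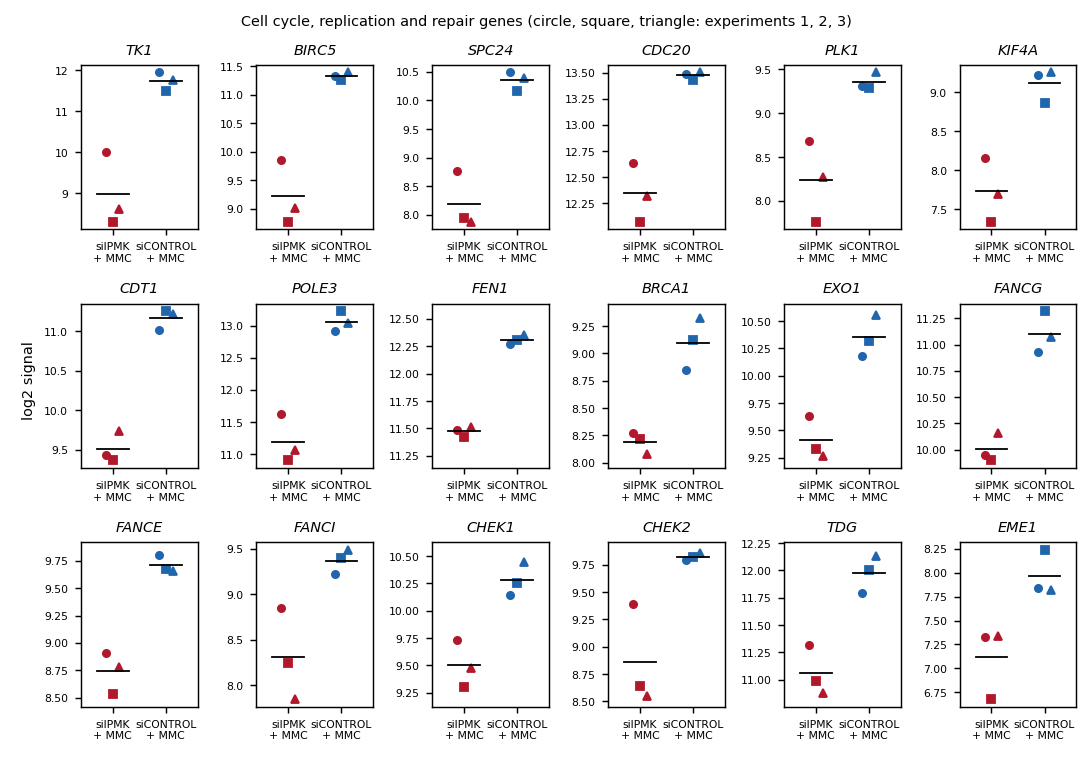
Normalized log2 signal of 18 genes of the cell cycle, replication and repair on each array, siIPMK + MMC left of siCONTROL + MMC, with horizontal bars at the group means and a separate vertical scale for each gene. No gene shown has overlapping groups, which held for 49.4% of all genes. TK1 lies between 8.31 and 10.01 on the siIPMK + MMC arrays and between 11.50 and 11.95 on the siCONTROL + MMC arrays.

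Repair of the crosslinks themselves depends on homologous recombination, where 16 of 26 genes fell and 3 rose (median -0.51). BRCA1, the ubiquitin ligase that starts recombination repair, measured 8.27, 8.22 and 8.08 in siIPMK + MMC cells, against 8.85, 9.12 and 9.33 in siCONTROL + MMC cells, a change of -0.91 ± 0.16 (adjusted p = 0.000884). Its partner BARD1 changed by -0.78 ± 0.13 (adjusted p = 0.000446). EXO1, the nuclease that resects broken ends, changed by -0.94 ± 0.15 (adjusted p = 0.000413). SEM1, a small acidic protein that binds BRCA2 and is also part of the proteasome lid and of the export complex TREX-2, had one of the largest falls of all, with 12.56, 11.35 and 11.51 against 14.09, 14.05 and 14.21 and a change of -2.31 ± 0.31 (adjusted p = 0.000148). SWI5, an accessory factor of strand exchange, rose by 0.58 ± 0.10 (adjusted p = 0.000626). The groups of these 5 genes did not overlap, which held for 49.4% of all genes. PALB2, which bridges BRCA1 and BRCA2, had overlapping groups (7.70, 7.91 and 7.97 against 7.80, 7.91 and 8.02) and a change of -0.05 ± 0.14 (adjusted p = 0.796). XRCC2, a strand exchange factor, also overlapped, at 8.10, 7.47 and 7.16 against 7.95, 8.08 and 7.81, with a change of -0.37 ± 0.20 (adjusted p = 0.149). Without the siIPMK + MMC array of experiment 1 its change was -0.63 and passed. Falls in recombination numbered 9 with median scaling, and rises numbered 1 without the siCONTROL + MMC array of experiment 2 or 3.

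Of 23 genes of the Fanconi anaemia pathway and of crosslink bypass, 11 fell and 1 rose (median -0.38). FANCG, of the core complex that ubiquitinates the FANCI and FANCD2 pair, measured 9.95, 9.90 and 10.16, against 10.92, 11.32 and 11.07 with control siRNA, a change of -1.10 ± 0.15 (adjusted p = 0.000133). FANCE, the core subunit that contacts FANCD2, measured 8.91, 8.53 and 8.78, against 9.81, 9.68 and 9.65, and fell by 0.97 ± 0.14 (adjusted p = 0.000224). FANCI measured 8.85, 8.25 and 7.85, against 9.22, 9.39 and 9.49, a change of -1.05 ± 0.21 (adjusted p = 0.00142). EME1, a partner of the MUS81 nuclease, changed by -0.85 ± 0.20 (adjusted p = 0.00409). All 4 were lower on each siIPMK + MMC array than on any siCONTROL + MMC array. Such separation held, in either direction, for 49.4% of all genes, and list members were named by their low p-values. The count of falls was 7 without the siCONTROL + MMC array of experiment 3 and 6 with median scaling.

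Damage checkpoint genes fell in 9 of 21 cases and rose in 1 (median -0.33). CHEK1, the checkpoint kinase downstream of ATR, measured 9.73, 9.30 and 9.47 on the siIPMK + MMC arrays, against 10.14, 10.25 and 10.45 on the siCONTROL + MMC arrays, a change of -0.78 ± 0.14 (adjusted p = 0.000664). CHEK2, its counterpart downstream of ATM, measured 9.39, 8.64 and 8.55, against 9.79, 9.82 and 9.85, with a change of -0.96 ± 0.21 (adjusted p = 0.00245). Here the siIPMK + MMC array of experiment 1 lay just under the controls and the other 2 well below them. TELO2, a chaperone adaptor that stabilises ATM, ATR and related kinases, changed by -0.92 ± 0.13 (adjusted p = 0.000181). CDC25A, the phosphatase that checkpoint kinases destroy, changed by -0.54 ± 0.12 (adjusted p = 0.0028), or by -0.84 over the mean of its probes. The number of falls was 14 without experiment 1.

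Base excision, nucleotide excision and mismatch repair together showed 16 falls and 1 rise among 36 genes. TDP1, which frees trapped topoisomerase, changed by -0.96 ± 0.13 (adjusted p = 0.00016), or by -0.63 over the mean of its probes. TDG, a thymine glycosylase, changed by -0.92 ± 0.13 (adjusted p = 0.000187) and ERCC8, of transcription-coupled repair, by -0.86 ± 0.14 (adjusted p = 0.000484). MUTYH, an adenine glycosylase, changed by -0.71 ± 0.12 (adjusted p = 0.000565). End joining gave 3 falls and 2 rises among 12 genes, close to the shares over all genes. POLQ, the polymerase of microhomology-mediated joining, changed by -0.58 ± 0.13 (adjusted p = 0.00258) and PAXX, a scaffold of classical joining, by -0.50 ± 0.13 (adjusted p = 0.00675). XRCC5, the Ku80 subunit, changed by -0.53 ± 0.14 (adjusted p = 0.00775), a call lost with median scaling. SHLD2, a shieldin subunit that protects ends from resection, rose by 0.77 ± 0.12 (adjusted p = 0.00029).

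The arrest and damage signalling genes hold cell cycle inhibitors, death effectors and repair factors that DNA damage induces. Of 44 tested, 15 rose (34.1%) and 10 fell (22.7%), with a median change of 0.18. Over all genes 20.8% rose and 20.4% fell, so the share of falls was near that of all genes. Without MMC the same list showed 27 rises and 3 falls, with a median change of 0.56, where 20.4% of all genes rose and 19.9% fell. CDKN1A, the cell cycle inhibitor p21, measured 14.89, 15.08 and 14.98 in siIPMK + MMC cells, against 14.13, 14.18 and 13.98 in siCONTROL + MMC cells, a change of 0.89 ± 0.15 (adjusted p = 0.000618). Without MMC its values were 13.55, 14.37 and 14.22 with siIPMK, against 12.12, 12.17 and 12.09 with control siRNA, a change of 1.92 ± 0.15 (adjusted p = 3.88e-06). GDF15, a secreted stress cytokine, measured 12.38, 12.70 and 12.69, against 11.26, 10.87 and 10.41, with MMC, and changed by 1.74 ± 0.27 (adjusted p = 0.000305), compared with 2.82 ± 0.27 (adjusted p = 8.48e-06) without MMC. DRAM1, a lysosomal protein that promotes autophagy, changed by 0.98 ± 0.16 (adjusted p = 0.000483) with MMC and by 1.86 ± 0.16 (adjusted p = 7.45e-06) without. GADD45A, a stress sensor that restrains CDK1, changed by 0.92 ± 0.13 (adjusted p = 0.000228) and 1.40 ± 0.13 (adjusted p = 1.07e-05) in the same order. CCNG2, a cyclin that inhibits the cycle and is also a FOXO target, changed by 1.09 ± 0.13 (adjusted p = 7.32e-05) with MMC and 1.10 ± 0.13 (adjusted p = 4.8e-05) without. MDM2, a ubiquitin ligase, had overlapping groups with MMC (6.82, 6.96 and 6.59 against 6.27, 6.66 and 6.92) and a change of 0.17 ± 0.27 (adjusted p = 0.63). Its probe read near the floor, so a change may be missed. On the siCONTROL + MMC arrays the lowest signals of detected probes were 6.41, 6.43 and 6.49. The 10 falls under MMC numbered 4 without the siIPMK + MMC array of experiment 2, 6 without that of experiment 3, 5 without the siCONTROL + MMC array of experiment 3 and 4 with median scaling.

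The difference between both depletion changes, with MMC minus without, was tested in the same fit, and 0 genes (0%) passed in either direction. At an unadjusted p under 0.05 there were 327 of 9409 genes. That is a smaller share than the 0.05 that such a cut lets through where no gene differs. Arrays with the same siRNA and experiment number deviated together from their group means, with correlations across genes of 0.35 to 0.70 in siIPMK cells and 0.19 to 0.49 in control cells. A fit with a term for each such pair, added after seeing the data, called 11 genes higher under MMC (0.117%) and 49 lower (0.521%). Of the 44 arrest and damage signalling genes, 12 were lower and 0 higher in that fit, and 39 of the 44 differences were under 0, as were 4647 of 9409 over all genes. With the same pairs, 8 arrest and damage signalling genes were lower with median scaling, 7 over the mean of the probes of each gene and 17 without experiment 1, and 0 were higher in each. The 12 genes named next were chosen after their values were seen. They are CDKN1A (difference -1.04 ± 0.13, adjusted p = 7.93e-05), GDF15 (-1.08), PHLDA3 (-0.98), DRAM1 (-0.87), XPC (-0.82), SESN1 (-0.81), BAX (-0.77, and -0.66 over the mean of its probes), PMAIP1 (-0.74), CYFIP2 (-0.63), TP53INP1 (-0.61), FBXW7 (-0.58) and TIGAR (-0.53). Over the mean of its 2 probes the difference of CDKN1A was -0.43 and did not pass (adjusted p = 0.289), and neither did those of PMAIP1, TP53INP1, FBXW7 and TIGAR in that setting. SESN1, a sestrin that restrains growth signalling, is given by array. With MMC it measured 10.35, 10.31 and 10.34 in siIPMK cells, against 10.41, 10.24 and 10.18 in control cells, a change of 0.06 ± 0.12 (adjusted p = 0.747). Without MMC it measured 9.44, 9.52 and 9.84, against 8.72, 8.87 and 8.61, a change of 0.86 ± 0.12 (adjusted p = 0.000164). Over the mean of their probes, the change of CYFIP2 with MMC was -0.36, against 0.32 for the probe used, which did not pass, and that of PMAIP1 was -0.07, against 0.27. PMAIP1, the apoptosis inducer NOXA, measured 8.57, 8.73 and 8.78, against 8.34, 8.47 and 8.46, with MMC and 7.47, 7.73 and 7.64, against 6.65, 6.36 and 6.81, without. In both genes the groups stood apart without MMC, and with MMC their means lay close, those of SESN1 with overlapping arrays. Under control siRNA, MMC itself changed SESN1 by 1.54, PMAIP1 by 1.82 and CDKN1A by 1.97, and the median over the list was 0.94. These changes share the siCONTROL + MMC arrays with the depletion change.

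In 4 genes the sign of a passed change turned: CYSRT1, PDLIM1, PHLDA3 and XPC fell with MMC and rose without it, while 0 genes did the reverse. They too were named after their values were seen, and with median scaling none of the 4 falls passed, while the differences of all 4 passed in the paired fit with that scaling. PHLDA3, an inhibitor of AKT, measured 9.85, 9.32 and 9.45 in siIPMK + MMC cells, against 10.08 and 10.20 in siCONTROL + MMC cells of experiments 2 and 3 and a little less in experiment 1, and 8.69, 8.56 and 8.75, against 8.07, 8.27 and 8.36, without MMC. The change was -0.55 ± 0.14 (adjusted p = 0.00686) with MMC and 0.43 ± 0.14 (adjusted p = 0.0248) without. The fall of XPC, which recognises DNA lesions for nucleotide excision repair, also lost its call without any single array other than the siIPMK + MMC array of experiment 1. It changed by -0.39 ± 0.13 (adjusted p = 0.03) with MMC and 0.44 ± 0.13 (adjusted p = 0.0172) without, with values of 10.86, 10.34 and 10.51 against 11.03, 10.88 and 10.95 in the MMC groups. PDLIM1, an actin-associated adaptor, changed by -0.28 ± 0.09 (adjusted p = 0.0191) and 0.39 ± 0.09 (adjusted p = 0.00328) in the same order. CYSRT1, a cysteine-rich tail protein, changed by -0.41 ± 0.14 (adjusted p = 0.0264) and 0.46 ± 0.14 (adjusted p = 0.0147). Both calls with MMC were lost without the siIPMK + MMC array of experiment 2 or 3 or the siCONTROL + MMC array of experiment 1, and that of CYSRT1 also without the siCONTROL + MMC array of experiment 2 or 3. BAX, the pore-forming killer of mitochondria, had changes of -0.76 ± 0.14 (adjusted p = 0.00084) with MMC and 0.00 ± 0.14 (adjusted p = 0.992) without. A second probe of BAX gave the opposite call with MMC, and the change over the mean of both probes was 0.05, so no direction is given for its change with MMC. ZMAT3, an RNA-binding protein, was not among these, with -0.70 ± 0.13 (adjusted p = 0.000925) with MMC and -0.51 ± 0.13 (adjusted p = 0.00654) without.

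**Figure D3:**
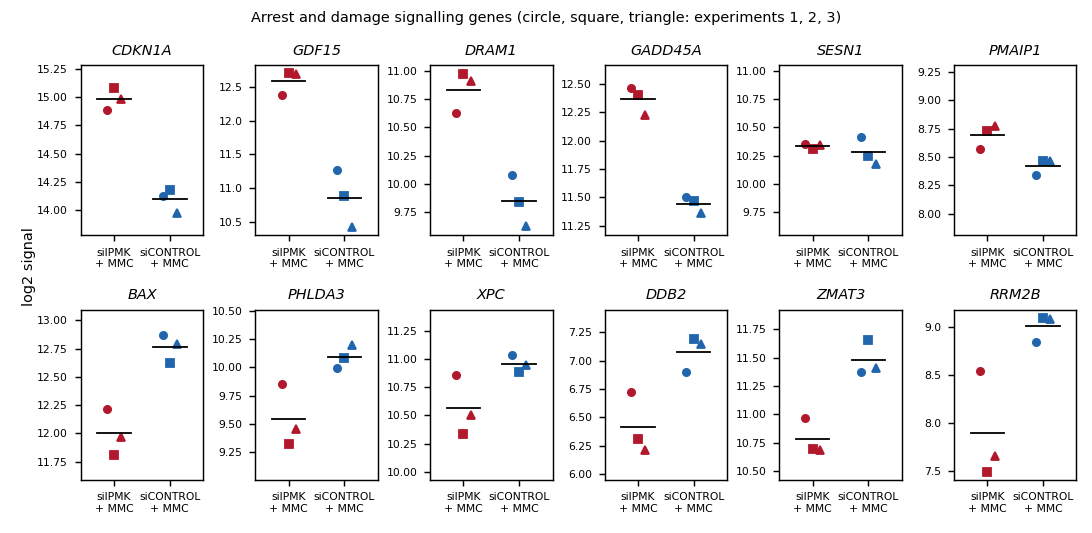
Normalized log2 signal of 12 arrest and damage signalling genes on each array, siIPMK + MMC left of siCONTROL + MMC, with horizontal bars at the group means and a separate vertical scale for each gene. CDKN1A lies between 14.89 and 15.08 on the siIPMK + MMC arrays and between 13.98 and 14.18 on the siCONTROL + MMC arrays, while SESN1 overlaps.

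**Figure D4:**
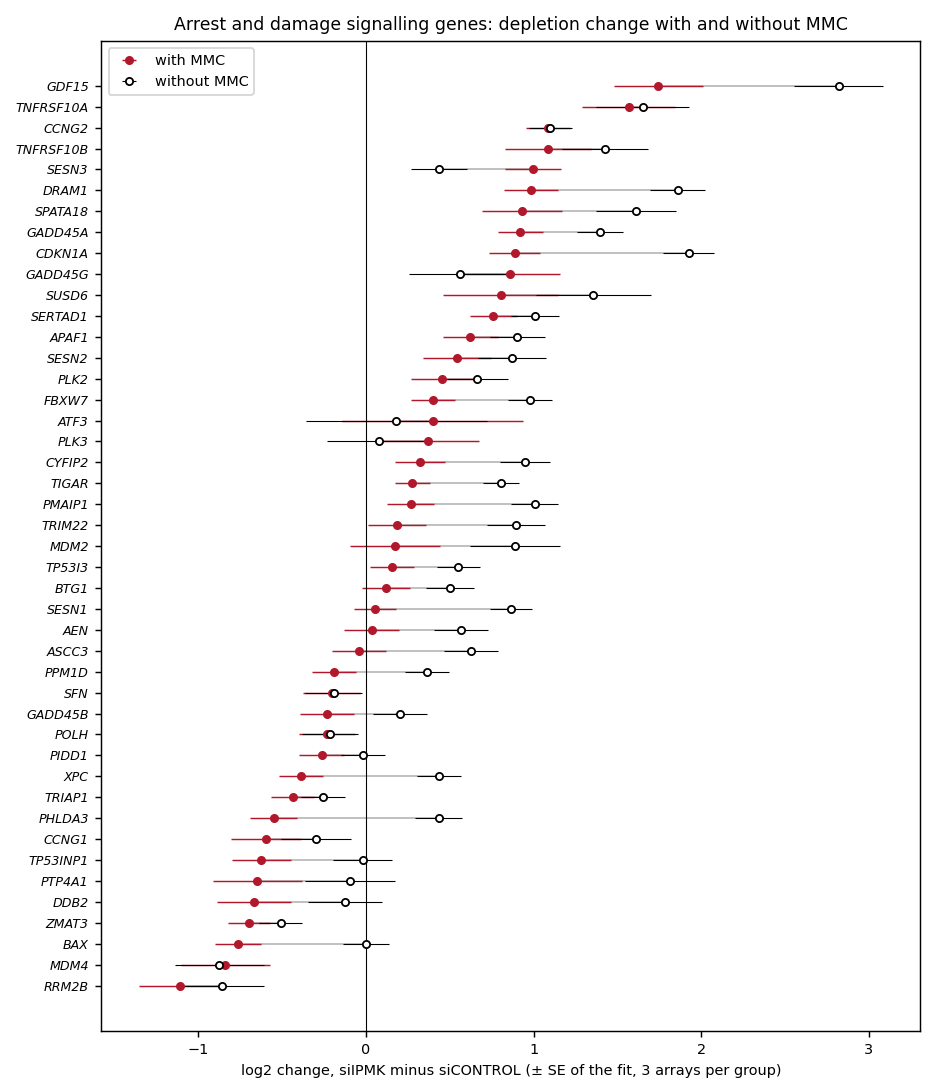
Log2 change on depletion (siIPMK minus siCONTROL, horizontal axis) of the 44 tested arrest and damage signalling genes, with MMC (filled) and without MMC (open), with standard errors of the fit (3 arrays per group) and a grey line joining the values of a gene. For 39 of the 44 genes the filled point lies left of the open one.

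Export of mRNA from the nucleus, the process IPMK is known for, was represented by 45 genes, of which 16 fell and 2 rose. ALYREF, the adaptor bound by the IPMK product, measured 11.01, 10.16 and 10.45, against 11.13, 11.03 and 10.97. The groups overlapped, and its change of -0.50 ± 0.19 was at the threshold (adjusted p = 0.0497) and lost the call in 9 of the alternatives run, among them the removal of any single array with MMC other than that of siIPMK in experiment 1. DDX19A, a helicase that strips export factors at the pore, measured 8.92, 8.78 and 8.80, against 9.71, 9.84 and 9.67 with control siRNA, a change of -0.91 ± 0.12 (adjusted p = 0.000133). MAGOH, a core exon junction protein, changed by -0.84 ± 0.12 (adjusted p = 0.000219). THOC3, of the THO complex that couples transcription to export, changed by -0.78 ± 0.13 (adjusted p = 0.000481). NXT2, a partner of the NXF export receptors, was above background on 0 of 3 siIPMK + MMC arrays and 3 of 3 siCONTROL + MMC arrays, at least 1.81-fold lower in siIPMK + MMC cells (adjusted p = 0.0026). The falls numbered 10 without the siIPMK + MMC array of experiment 2, 9 without the siCONTROL + MMC array of experiment 3 and 8 with median scaling. In the nuclear pore and the Ran cycle 19 of 52 genes fell and 6 rose, with 12 falls without the siIPMK + MMC array of experiment 2, 11 falls with median scaling, and 2 or 3 rises without any single array with MMC other than that of siIPMK in experiment 1. NUP37, NUP107 and NUP85, all of the scaffold ring of the pore, changed by -0.86 ± 0.11 (adjusted p = 9.43e-05), -0.61 ± 0.09 (adjusted p = 0.000321) and -0.85 ± 0.14 (adjusted p = 0.000517). RANBP1, a cofactor of the Ran GTPase, changed by -0.72 ± 0.13 (adjusted p = 0.000988).

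Nuclear and small RNAs were read in the cytoplasmic fraction by 9 genes, 4 of which rose (44.4%) and 2 fell (22.2%), the latter near the 20.4% over all genes. Only 2 rose without the siIPMK + MMC array of experiment 2 or 3 or the siCONTROL + MMC array of experiment 1. RPPH1, the RNA of RNase P, a nuclear enzyme that trims tRNA, had the largest rise of all genes detected on the 6 arrays, with 10.37, 10.40 and 10.64 in siIPMK + MMC cells, against 8.01, 7.72 and 7.64 in siCONTROL + MMC cells and a change of 2.68 ± 0.14 (adjusted p = 8.17e-08). SNORD13, a nucleolar RNA, rose by 0.78 ± 0.20 (adjusted p = 0.00639), with the array of experiment 1 highest of its group. Without that array its change was 0.52. SCARNA9, a Cajal body RNA, was above background on 1 of 3 siIPMK + MMC arrays and 3 of 3 siCONTROL + MMC arrays, at 6.33, 6.16 and 5.46 against 7.61, 7.95 and 7.87, and fell. TUG1, a long noncoding RNA, changed by -0.57 ± 0.10 (adjusted p = 0.000671). Array labelling starts from polyadenylated RNA by its usual design, and how these RNAs were captured is not given in the sources used here.

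Splicing factors fell in 26 of 66 cases and rose in 1. SF3A3, of the U2 particle, measured 10.67, 10.40 and 10.67 on the siIPMK + MMC arrays, against 12.03, 12.13 and 12.06 on the siCONTROL + MMC arrays, a change of -1.49 ± 0.16 (adjusted p = 3.11e-05). SNRPD3 and SNRPB, Sm proteins of the spliceosomal particles, changed by -1.12 ± 0.16 (adjusted p = 0.000193) and -0.57 ± 0.09 (adjusted p = 0.000263). The falls numbered 15 without the siIPMK + MMC array of experiment 2 and 16 with median scaling. Ribosome biogenesis showed 17 falls and 1 rise among 51 genes. The lowest p-values were those of NOC4L and TSR1, both assembly factors of the small subunit, at -0.71 ± 0.14 (adjusted p = 0.00118) and -0.74 ± 0.14 (adjusted p = 0.00134). The list had 5 falls under median scaling and 10 or 11 without any one of 4 arrays, those of experiments 2 and 3 in both groups, and 4 rises without experiment 1. POLR3G, a subunit of RNA polymerase III, lay at least 1.93-fold lower in siIPMK + MMC cells, above background on 0 of 3 arrays there and 3 of 3 with control siRNA (adjusted p = 0.000519). Cytoplasmic ribosomal proteins fell in 12 of 67 cases, below the share over all genes, and rose in 1. The falls were 7 without the siCONTROL + MMC array of experiment 2 and 19 without the siIPMK + MMC array of experiment 1. The mitochondrial ribosome gave 22 falls and 1 rise among 73, and the respiratory chain 21 and 3 among 65. MRPL52, of the large mitochondrial subunit, changed by -0.85 ± 0.10 (adjusted p = 7.32e-05). ATP5MC1, a ring subunit of the mitochondrial ATP synthase, changed by -0.81 ± 0.11 (adjusted p = 0.00014). Falls of the mitochondrial ribosome numbered 9 with median scaling, 14 without the siIPMK + MMC array of experiment 2 or 3 and 13 without the siCONTROL + MMC array of experiment 3. Those of the respiratory chain numbered 12 with median scaling and 13 without the siIPMK + MMC array of experiment 2. Its rises numbered 6 without the siIPMK + MMC array of experiment 1 and 1 without any other single array with MMC except that of control siRNA in experiment 3.

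Compartments that handle secreted, surface and degraded proteins went the other way. Of 49 lysosome genes 25 rose and 2 fell (median 0.52). CTSD, the acid protease cathepsin D, measured 9.33, 10.31 and 10.26 in siIPMK + MMC cells, against 8.51, 8.02 and 7.81 in siCONTROL + MMC cells, a change of 1.85 ± 0.30 (adjusted p = 0.000397). ATP6V1A and ATP6V0E1, of the proton pump that acidifies the lysosome, measured 12.48, 13.14 and 12.92 against 11.56, 11.59 and 11.50 for the first, with changes of 1.30 ± 0.16 (adjusted p = 7.97e-05) and 0.94 ± 0.16 (adjusted p = 0.000584). CTSC, cathepsin C, changed by 0.84 ± 0.14 (adjusted p = 0.000529). The rises numbered 13 without the siIPMK + MMC array of experiment 2 or 3, 15 without the siCONTROL + MMC array of experiment 3 and 38 without experiment 1.

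In the endoplasmic reticulum 25 of 45 folding and translocation genes rose and 2 fell (median 0.50). DNAJB9, a chaperone of the lumen, measured 9.41, 10.34 and 10.16, against 8.43, 8.45 and 7.84 with control siRNA, a change of 1.73 ± 0.30 (adjusted p = 0.000637). ERO1A, the oxidase that drives disulphide formation, changed by 1.05 ± 0.16 (adjusted p = 0.000255). The 2 falls were both of stress-induced genes: HSPA5, the main lumenal chaperone BiP, measured 6.48, 6.88 and 6.69, against 7.67, 7.58 and 7.45, a change of -0.88 ± 0.16 (adjusted p = 0.000752), and MANF, a secreted stress factor, measured 10.91, 10.55 and 10.37, against 12.06, 11.78 and 11.44, a change of -1.15 ± 0.19 (adjusted p = 0.000437). On the siIPMK + MMC arrays HSPA5 read close to the lowest signal of detected probes (6.24, 6.27 and 6.18), so the size of its fall is uncertain. EIF2AK3, the stress kinase PERK, was above background on 2 of 3 siIPMK + MMC arrays and 0 of 3 siCONTROL + MMC arrays, at least 1.19-fold higher (adjusted p = 0.000529). Rises numbered 16 without the siIPMK + MMC array of experiment 2 and 14 without the siCONTROL + MMC array of experiment 3.

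Surface and matrix genes rose in 19 of 39 cases and fell in 2 (median 0.48). CD44, the hyaluronan receptor, measured 11.46, 11.81 and 11.54 on the siIPMK + MMC arrays, against 9.91, 9.20 and 8.82 on the siCONTROL + MMC arrays, a change of 2.29 ± 0.26 (adjusted p = 5.13e-05). TIMP2, an inhibitor of matrix metalloproteinases, changed by 1.38 ± 0.20 (adjusted p = 0.000193) and ADAMTS1, a secreted protease, by 1.34 ± 0.19 (adjusted p = 0.000219). LAMB1, a laminin chain, changed by 1.20 ± 0.18 (adjusted p = 0.000234). The genes named next are not in that list and had some of the largest rises. ABCA1, the cholesterol exporter, read higher on every siIPMK + MMC array, up to 9.87, than on any siCONTROL + MMC array, at 7.04, 7.43 and 7.08, with a change of 2.36 ± 0.25 (adjusted p = 4.18e-05). ALCAM, an adhesion molecule, changed by 1.83 ± 0.18 (adjusted p = 2.04e-05), PROCR, the protein C receptor, by 1.84 ± 0.26 (adjusted p = 0.000186) and VASN, which binds TGF-beta, by 1.95 ± 0.21 (adjusted p = 4.25e-05). TRPC6, a calcium channel, changed by 2.02 ± 0.18 (adjusted p = 1.07e-05). GPX3, a secreted glutathione peroxidase, measured 10.70, 12.40 and 12.28, against 9.47, 9.85 and 9.46, a change of 2.20 ± 0.40 (adjusted p = 0.000824). The siIPMK + MMC array of experiment 1 lay between its partners and the controls. PTGES, which makes prostaglandin E2, changed by 1.97 ± 0.34 (adjusted p = 0.000674) and MYL4, an embryonic myosin light chain, by 1.96 ± 0.17 (adjusted p = 1.09e-05). GCNT3, a mucin-type glycosyltransferase, changed by 1.87 ± 0.46 (adjusted p = 0.00548). LBH, a transcription cofactor, changed by 2.14 ± 0.36 (adjusted p = 0.00054).

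The breast and epithelial markers of the line differed in level, with 13 of 22 rising and 0 falling (median 0.61). CD24, a glycosylated surface protein, measured 13.29, 13.52 and 13.67, against 12.19, 12.43 and 12.40 in siCONTROL + MMC cells, a change of 1.15 ± 0.13 (adjusted p = 6.19e-05). KRT19, a keratin of simple epithelia, measured 12.04, 12.54 and 12.52, against 10.95, 10.99 and 11.22, a change of 1.31 ± 0.16 (adjusted p = 8.44e-05). SCGB2A1, the secretoglobin mammaglobin B, changed by 1.72 ± 0.22 (adjusted p = 9.58e-05).

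FOXO targets and insulin feedback genes rose in 12 of 24 cases and fell in 0 (median 0.59). IRS2, the docking protein of the insulin receptor, measured 9.27, 9.47 and 9.57 in siIPMK + MMC cells, against 8.39, 8.31 and 8.31 in siCONTROL + MMC cells, a change of 1.10 ± 0.15 (adjusted p = 0.000181). TRIB1, a pseudokinase scaffold, changed by 1.30 ± 0.18 (adjusted p = 0.000166) and RHOB, an endosomal small GTPase, by 1.06 ± 0.14 (adjusted p = 0.000143). TRIB2, a related pseudokinase, was above background on 3 of 3 siIPMK + MMC arrays and 0 of 3 siCONTROL + MMC arrays, at least 2.65-fold higher (adjusted p = 0.00109). Immediate early and ERK feedback genes rose in 11 of 33 cases and fell in 1, or fell in 3 without experiment 1, with DUSP5, a nuclear ERK phosphatase, at 1.35 ± 0.18 (adjusted p = 0.000117), SPRY4, an inhibitor of receptor signalling, at 1.01 ± 0.16 (adjusted p = 0.000445), and ETV5, an ETS factor, at 0.70 ± 0.11 (adjusted p = 0.000385).

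NF-kB and cytokine genes rose in 11 of 22 cases and fell in 0. TNFSF9, a ligand that costimulates T cells, measured 9.60, 10.76 and 10.47, against 8.65, 8.04 and 7.66, a change of 2.16 ± 0.38 (adjusted p = 0.000669). TNFRSF12A, the TWEAK receptor, changed by 1.23 ± 0.24 (adjusted p = 0.00144) and NFKB2, a precursor of the p52 subunit, by 1.06 ± 0.23 (adjusted p = 0.00224). IL1A, the cytokine interleukin-1 alpha, was above background on 3 of 3 siIPMK + MMC arrays (7.42, 7.57 and 7.43) and 0 of 3 siCONTROL + MMC arrays, at least 2.04-fold higher (adjusted p = 0.000106). The rises numbered 7 without the siIPMK + MMC array of experiment 2, 7 without the siCONTROL + MMC array of experiment 3 and 6 of 14 when detection on all 12 arrays was required, and 3 genes fell without experiment 1. In antigen display, 5 of 11 genes rose and 1 fell, or 8 rose without experiment 1. HLA-DMB, a chain of the class II peptide exchanger, measured 10.32, 11.18 and 10.79, against 9.23, 8.67 and 8.17, a change of 2.08 ± 0.32 (adjusted p = 0.000337), whereas B2M, the light chain of class I molecules, measured 10.43, 9.43 and 9.73, against 11.48, 11.53 and 10.96, a change of -1.46 ± 0.25 (adjusted p = 0.000615). Interferon response genes rose in 10 of 32 cases and fell in 2, or rose in 6 without the siIPMK + MMC array of experiment 2. ISG20, an exonuclease that degrades viral RNA, changed by 1.06 ± 0.17 (adjusted p = 0.000437). IRF1, a transcription factor of the response, changed by 0.73 ± 0.15 (adjusted p = 0.00163). HERC6, a ubiquitin ligase family member, was above background on 3 of 3 siIPMK + MMC arrays and 0 of 3 siCONTROL + MMC arrays (at least 1.22-fold higher).

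Some genes were detected in 1 group alone. The lowest signal of detected probes was 6.18 to 6.27 on the siIPMK + MMC arrays and 6.41 to 6.49 on the siCONTROL + MMC arrays. Detection was thus easier in the siIPMK + MMC group, and the counts of both directions cannot be set against each other. Of 9409 genes, 133 that passed were above background on 3 siIPMK + MMC arrays and 0 siCONTROL + MMC arrays, and 32 on 0 and 3. The 10 with the largest bounds among the first are SERPINB8, an intracellular protease inhibitor (at least 3.54-fold higher in siIPMK + MMC cells), DGKB, a diacylglycerol kinase (3.23-fold), EPAS1, the hypoxia-inducible factor HIF-2 alpha (2.85-fold), MMP24, a membrane metalloproteinase (2.82-fold), TRIB2, ARRDC4, an arrestin-like adaptor of glucose uptake (2.59-fold), OTOF, a calcium sensor of vesicle fusion (2.59-fold), EDN2, a vasoconstrictor peptide (2.49-fold), LGALS3, a galectin (2.46-fold), and ITGB8, an integrin that activates latent TGF-beta (2.45-fold). EPAS1 measured 8.06, 7.75 and 8.05 on the siIPMK + MMC arrays, against 6.22, 5.89 and 5.73 on the siCONTROL + MMC arrays, all 3 control values under the background limit. In the other direction the largest bound was that of BLACAT1, a long noncoding RNA, at least 2.7-fold lower, with 6.12, 5.96 and 5.77 against 7.86, 7.46 and 7.67. PCBD2, a transcription cofactor and dehydratase (2.31-fold), SLC47A1, a drug exporter (1.95-fold), RTL8B, a retrotransposon-derived gene (1.91-fold), USP47, a deubiquitinase (1.9-fold), RFX7, a transcription factor (1.76-fold), and SNX1, of the retromer (1.68-fold), followed it together with POLR3G, MKI67 and NXT2.

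The list of metallothioneins, small proteins that bind zinc and copper, and their regulators had 7 falls and 1 rise among 9 genes and a median of -0.84. All 7 falls were of metallothioneins themselves, the rise was that of SLC30A1, a zinc exporter, at 0.98 ± 0.17 (adjusted p = 0.000587), and MTF1, the zinc-sensing factor that induces both, did not pass, at -0.08 ± 0.19 (adjusted p = 0.76). MT1M measured 10.20, 9.06 and 9.37 in siIPMK + MMC cells, against 11.31, 11.62 and 11.66 in siCONTROL + MMC cells, a change of -1.98 ± 0.26 (adjusted p = 0.000119). MT1E, MT1G and MT1F changed by -1.11 ± 0.15, -1.50 ± 0.24 and -0.82 ± 0.13. The isoforms are near-identical in sequence, so their probes may read each other and the members are not independent. Cholesterol and fatty acid synthesis genes fell in 12 of 35 cases and rose in 3, or rose in 1 without the siIPMK + MMC array of experiment 2 or 3, 5 with median scaling, 6 with array weights and 9 without experiment 1. IDI1, the isomerase that makes the isoprene building block, measured 7.56, 6.41 and 6.53, against 8.55, 8.87 and 8.99, a change of -1.97 ± 0.30 (adjusted p = 0.000322). ACAT2, the cytosolic thiolase, changed by -1.07 ± 0.16 (adjusted p = 0.000234). FDPS, farnesyl diphosphate synthase, changed by -0.83 ± 0.13 (adjusted p = 0.000321), while the exporter ABCA1 rose.

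Notch effectors fell in 6 of 17 cases (35.3%) and rose in 2 (11.8%), where 20.4% of all genes fell and 20.8% rose. HEY1, a repressor induced by Notch, measured 8.25, 7.59 and 7.26, against 9.39, 9.52 and 9.64 with control siRNA, a change of -1.82 ± 0.27 (adjusted p = 0.000258). HEY2, its relative, changed by -0.76 ± 0.12 (adjusted p = 0.000418) and NOTCH3, a receptor, by -0.87 ± 0.16 (adjusted p = 0.00113). HEYL, a further relative, was above background on 1 of 3 siIPMK + MMC arrays and 3 of 3 siCONTROL + MMC arrays, with 6.94, 6.07 and 5.54 against 8.97, 9.24 and 9.48. Genes driven by the factors SRF and YAP showed 8 rises and 7 falls among 32 (25% and 21.9%), near the shares over all genes, and 5 rises without the siIPMK + MMC array of experiment 2. CNN1, smooth muscle calponin, measured 6.83, 6.69 and 6.65, against 8.32, 8.67 and 8.47, a change of -1.77 ± 0.17 (adjusted p = 1.55e-05), and ACTG2 and TAGLN, of smooth muscle filaments, changed by -1.01 ± 0.12 (adjusted p = 7.32e-05) and -0.72 ± 0.09 (adjusted p = 0.000123). ANKRD1, a nuclear target of YAP, rose by 0.74 ± 0.13.

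Histone genes went both ways, with 8 rises (36.4%) and 6 falls (27.3%) among 22, where 20.8% of all genes rose and 20.4% fell. There were 5 rises among 17 when detection on all 12 arrays was required. The rises were all of genes in the replication-dependent clusters: H1-2, H2AC6, H2AC18, H2BC5, H2BC12, H3C4, H4C8 and H4C14. As for the small RNAs above, labelling starts from polyadenylated RNA by its usual design. Transcripts of these genes without a poly(A) tail may therefore be missed, and the rises may not stand for their total RNA. H2BC5 measured 10.49, 10.46 and 10.39 in siIPMK + MMC cells, against 8.97, 8.48 and 8.98 in siCONTROL + MMC cells, a change of 1.64 ± 0.13 (adjusted p = 6.66e-06), and H2AC6 changed by 1.70 ± 0.15 (adjusted p = 1.07e-05). Falls included the cluster genes H2AC20 and H4C3, at -0.57 ± 0.16, a call lost with median scaling, and -0.70 ± 0.12, the variants H2AZ1 and H2AZ2, and SLBP, the protein that binds histone mRNA stems, at -0.47 ± 0.11 (adjusted p = 0.00547). The call of SLBP was lost over the mean of its probes, at -0.27, and with median scaling, at -0.33. H3-3B, one of the genes of a replication-independent H3 variant, measured 8.80, 7.78 and 7.70, against 10.12, 9.92 and 9.94, a change of -1.90 ± 0.30 (adjusted p = 0.000332). Members of the histone clusters are near-identical and their probes may read each other. Enzymes of inositol phosphates and phosphoinositides, the family of IPMK, rose in 14 of 48 cases (29.2%) and fell in 4 (8.33%). They rose in 22 with median scaling and in 9 of 34 when detection on all 12 arrays was required. ITPKA, which phosphorylates inositol trisphosphate, measured 7.15, 7.13 and 6.91, against 8.21, 8.29 and 8.26, a change of -1.19 ± 0.13 (adjusted p = 5.14e-05). INPP4B and OCRL, phosphatases of phosphoinositides, changed by 0.90 ± 0.13 (adjusted p = 0.000181) and 0.90 ± 0.13 (adjusted p = 0.000195). PIP4K2A, a phosphoinositide kinase, changed by -0.99 ± 0.10 (adjusted p = 3.56e-05), but its probes were opposed and their mean changed by -0.20, which did not pass.

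Other large falls touched several cell functions. RAB22A, an endosomal GTPase, measured 8.08, 7.31 and 7.52 on the siIPMK + MMC arrays, against 9.82, 10.03 and 10.03 on the siCONTROL + MMC arrays, a change of -2.32 ± 0.22 (adjusted p = 1.55e-05). UBE2J1, a ubiquitin-conjugating enzyme of the endoplasmic reticulum, measured 8.17, 7.31 and 7.10, against 9.85, 9.63 and 9.58, a change of -2.16 ± 0.29 (adjusted p = 0.000143). G3BP1, a core protein of stress granules, measured 7.81, 7.35 and 7.67, against 9.56, 9.48 and 9.41, a change of -1.88 ± 0.14 (adjusted p = 4.04e-06). SLC25A15, the mitochondrial ornithine carrier, changed by -2.37 ± 0.31 (adjusted p = 0.000133) and STYX, a pseudophosphatase, by -2.12 ± 0.41 (adjusted p = 0.00128), though over the mean of their probes by -1.20 and -1.34. SH3GL2, the endocytic protein endophilin A1, changed by -1.89 ± 0.24 (adjusted p = 0.000101), and SPACA9 and C12orf76 by -1.98 ± 0.30 and -1.91 ± 0.22. Among translation factors 9 of 40 fell (22.5%), near the 20.4% over all genes, and 3 rose (7.5%), against 20.8% over all genes. Falls numbered 5 without the siIPMK + MMC array of experiment 2 or 3 or the siCONTROL + MMC array of experiment 2 or 3, and 14, with 5 rises, without the siIPMK + MMC array of experiment 1. EIF2B1, a subunit of the exchange factor for initiation factor eIF2, measured 9.16, 8.48 and 8.71, against 10.64, 10.36 and 10.59, a change of -1.75 ± 0.19 (adjusted p = 4.18e-05), while PABPC1 and PABPC4, poly(A)-binding proteins, rose by 0.54 ± 0.08 and 0.82 ± 0.09. In the RNA interference pathway, which the siRNA itself uses in both groups, 6 of 14 genes fell and 2 rose, with AGO2, the slicing Argonaute, at -0.69 ± 0.13 (adjusted p = 0.000891), DICER1, the processing nuclease, at -0.82 ± 0.18 (adjusted p = 0.00239), and TNRC6B, a silencing scaffold, at -0.94 ± 0.13 (adjusted p = 0.000202).

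Set beside depletion without MMC, which has its own control arrays, 1469 genes rose in both comparisons, 75.0% of the 1959 rises with MMC and 76.4% of the 1922 without. Falls were shared by 1457 genes, 75.8% of the 1923 with MMC and 78.0% of the 1868 without. Across all genes the depletion changes in both settings had a Pearson correlation of 0.916, given as a description since genes are not independent. In the 49 genes that the paired fit called lower under MMC, 37 rose without MMC, 15 fell with MMC and 13 rose in both settings, and their median change was 0.01 with MMC and 0.81 without. These genes were chosen by that difference, so a lower change with MMC than without is fixed by the choice. Among the 11 called higher were HLA-DMB (difference 0.59 ± 0.13), ACTG2 (0.55 ± 0.12) and TAGLN (0.50 ± 0.10). Those 3 were picked because they stand in lists described above, after their values were seen. The scatter of both changes sets the arrest and damage signalling genes and the mitosis genes against the line of equal change.

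**Figure D5:**
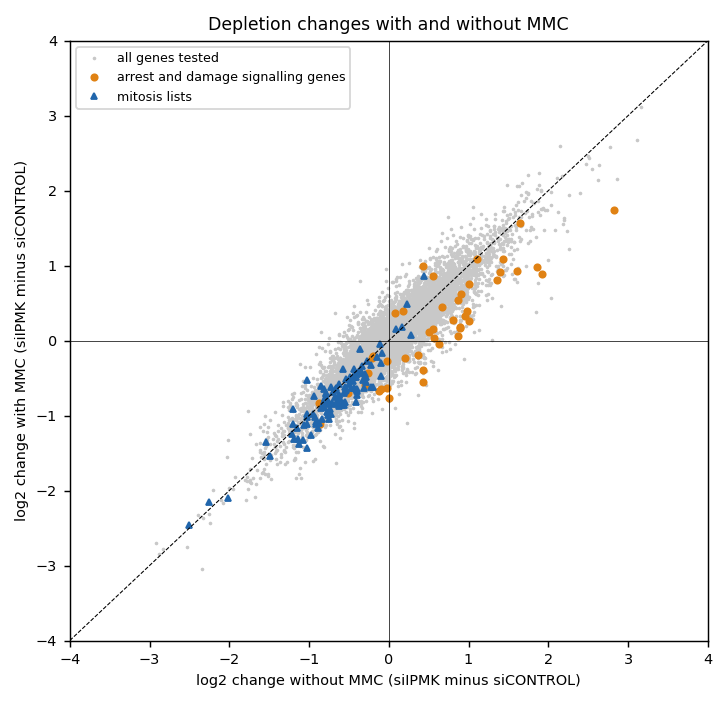
Log2 change on depletion (siIPMK minus siCONTROL) with MMC (vertical axis) against that without MMC (horizontal axis) for 9409 genes (grey), 44 arrest and damage signalling genes (orange circles) and the tested genes of the 3 mitosis lists (blue triangles), with a dashed line of equal change. Over all genes the correlation was 0.916, and 39 of the 44 arrest and damage signalling genes lie below the line.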

How the data were processed

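Cytoplasmic RNA of 12 samples of Cal51 cells was read on Illumina bead arrays as biotin-labelled cRNA. The table of bead intensities deposited by the authors holds 48802 probes with mean intensity, detection p-value and bead number per array, per the file headers, with no scaling between arrays. A second deposited table holds quantile-normalized values on a log2-like scale whose transform is not stated; lumi is the tool in the submitters' processing notes, which state no version. That table matches the probes detected on at least 1 array (14853) and was used as an alternative. The scanner software, chip and scan are not given in the sources used here.

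From the intensities, background was modelled from the detection p-values (normexp, offset 16) and arrays were quantile normalized and put on the log2 scale, with limma 3.58.1 in R 4.3.3. Probes with a detection p-value under 0.01 on at least 3 arrays were kept (13830), 12086 of them with 1 gene symbol from the platform annotation, updated through RefSeq gene IDs, and 1744 with several or none. The probe with the highest mean signal stood for its gene, giving 9409 genes; 2219 genes had more than 1 probe, and 19 of these had probes called in opposite directions. A linear model with 4 group means over all 12 arrays was fitted, with moderated tests, a mean-variance trend and Benjamini-Hochberg adjustment over all genes. The steps were tested on simulated data. P-values measure the spread between these 3 arrays per group, which may be technical; precision is limited by so few arrays.

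Groups came from the sample titles. Arrays with and without MMC of the same siRNA and experiment number deviated together (correlations of 0.70, 0.54 and 0.35 with siIPMK and 0.49, 0.19 and 0.42 with control siRNA), so a fit with a term for each such pair was added. The members and all 46 gene lists were chosen with earlier results of these data known. Named genes were the 15 largest rises and falls without overlap and detected on all 6 arrays, up to 10 genes detected in 1 group alone in each direction, the 4 members of each list with the lowest p, and fixed genes. Outside this rule, and after their values were seen, were named CEP55 and ZWINT (promoters), HSPA5, E2F2, ZMAT3, MTF1, SLC30A1 and SLBP, the histone genes that spell out a count, and genes that differed between depletion with and without MMC. Alternatives covered background, scaling, detection, probes, array weights, the variance trend, left-out arrays and the replicate block.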

Additional observations from a re-analysis of the deposited data

Results flagged for a closer look

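In each gene given here the depletion change with MMC differed from that without MMC by the test of the difference itself, in the fit that pairs arrays of the same siRNA and experiment number. None of them passed in the fit without pairs. The values are differences in log2 units, with MMC minus without. Higher with MMC were HLA-DMB, at 0.59 ± 0.13 (adjusted p = 0.0316), ACTG2, at 0.55 ± 0.12 (adjusted p = 0.037), and TAGLN, at 0.50 ± 0.10 (adjusted p = 0.0154). Lower with MMC were 12 arrest and damage signalling genes. Of these, CDKN1A differed by -1.04, GDF15 by -1.08, PHLDA3 by -0.98, DRAM1 by -0.87, XPC by -0.82, SESN1 by -0.81 and BAX by -0.77. For BAX, whose probes gave opposite calls with MMC, the difference was -0.66 over the mean of its probes. The other 5 were PMAIP1 at -0.74, CYFIP2 at -0.63, TP53INP1 at -0.61, FBXW7 at -0.58 and TIGAR at -0.53, with adjusted p-values of 0.0458, 0.0185, 0.037, 0.0296 and 0.0478. PDLIM1, at -0.68, and CYSRT1, at -0.87, were also lower and are not in that list. Over the mean of the probes of each gene, the paired fit called 7 arrest and damage signalling genes lower. The differences of CDKN1A, PMAIP1, TP53INP1, FBXW7 and TIGAR did not pass in that setting, as given above. The siIPMK arrays of experiment 1, which lay nearest to the controls with and without MMC, enter each of these values. Without experiment 1 the paired fit called 41 genes higher and 85 lower, 17 of the lower ones arrest and damage signalling genes.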

How the results depend on the processing

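Falls numbered 1088 with median scaling. A fit of only the 6 arrays with MMC gave 1728 rises and 1671 falls. Rises of at least 2-fold numbered 195 without background correction, 123 with the authors' deposited values, 246 when detection on all 12 arrays was required and 668 without experiment 1 in all groups. Falls of at least 2-fold numbered 154 without background correction, 193 with median scaling, 116 with the authors' deposited values and 481 without experiment 1. Leaving out each array with MMC in turn gave 1352 to 2348 rises and 1398 to 2214 falls, 323 to 616 rises and 238 to 467 falls of at least 2-fold, and 0 to 7 genes for the difference between depletion changes, the highest of each 2-fold count and of the difference without the siIPMK + MMC array of experiment 1. That difference was passed by 1 gene with the authors' deposited values, 34 with array weights, 27 without experiment 1, 60 with the replicate block within each siRNA, 38 with that block and median scaling, 36 with that block and the mean of the probes of a gene, and 126 with that block and without experiment 1. A replicate block on the experiment number over all arrays gave 2255 rises and 2164 falls; same-numbered arrays of the MMC groups correlated by 0.055, 0.195 and -0.022, so the numbers do not pair them. Values that turned were those of BAX over the mean of its probes (0.0455), CYFIP2 likewise (-0.36), PMAIP1 likewise (-0.0685), MDM2 without experiment 1 (-0.0149), and MTF1 (0.10) and PALB2 (0.12) with median scaling. Leaving out single arrays gave -0.178 to 0.0134 for MTF1 and -0.108 to 0.0297 for PALB2. Of these, BAX had passed, and CYFIP2 passed over the mean of its probes. Counts of the gene lists moved by over 1.5 times, where the larger was at least 3, for 17 lists' falls and 1 list's rises with median scaling, all fewer, and for 3 lists' rises, all more. With array weights 14 lists had more rises and 8 more falls by that measure. The causes were not tested. A block for the chip was not run, since the files give no chip or scan. Signal over background limits genes undetected in 1 group to bounds.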

Other observations

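The lists given here are set against the shares of all genes, 20.8% that rose and 20.4% that fell in siIPMK + MMC against siCONTROL + MMC cells. Amino acid supply was divided: among 40 genes of the ATF4 response and tRNA charging 15 rose (37.5%) and 6 fell (15%). PHGDH, the entry enzyme of serine synthesis, measured 12.16, 11.52 and 11.64, against 13.27, 13.13 and 13.13 with control siRNA, a change of -1.40 ± 0.20 (adjusted p = 0.000198). SLC38A2 and SLC1A5, importers of glutamine and other neutral amino acids, changed by 1.04 ± 0.17 (adjusted p = 0.000494) and 0.84 ± 0.17 (adjusted p = 0.00153), and SLC7A1, an importer of cationic ones, by -0.82 ± 0.13 (adjusted p = 0.00045). Glycolysis and hypoxia genes rose in 14 of 36 cases (38.9%) and fell in 3 (8.33%). CA12, a membrane carbonic anhydrase, measured 11.06, 12.22 and 12.10, against 10.44, 10.22 and 9.80, a change of 1.65 ± 0.28 (adjusted p = 0.000609). KDM3A, a hypoxia-induced histone demethylase, changed by 0.91 ± 0.15 (adjusted p = 0.000473) and BNIP3, a mitophagy receptor, by 0.85 ± 0.15 (adjusted p = 0.000609). The hypoxia factor EPAS1 was detected in siIPMK + MMC cells alone, as given above.

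Proteasome genes rose in 10 of 38 cases (26.3%) and fell in 4 (10.5%), or rose in 17 without experiment 1. PSMB7, a catalytic core subunit, changed by 0.51 ± 0.12 (adjusted p = 0.00403), and PSMD9, an assembly chaperone, by -0.92 ± 0.14 (adjusted p = 0.000349). Of the genes upstream of mTORC1, RRAGA, a GTPase that signals amino acids at the lysosome, lay lower on each siIPMK + MMC array than on any siCONTROL + MMC array (11.66, 11.63 and 11.64), with a change of -1.34 ± 0.22 (adjusted p = 0.000464), whereas its relative RRAGB changed by 0.51 ± 0.11 (adjusted p = 0.00237) and RHEB, the activating GTPase, by 0.54 ± 0.08 (adjusted p = 0.00025). In that list 11 of 40 genes rose (27.5%) and 8 fell (20%). Its rises numbered 3 without the siIPMK + MMC array of experiment 2, 4 without that of experiment 3 and 7 without any 1 siCONTROL + MMC array. Heat shock chaperones rose in 6 of 31 cases (19.4%) and fell in 5 (16.1%), near the shares over all genes, or rose in 2 without the siIPMK + MMC array of experiment 2 and 3 without the siCONTROL + MMC array of experiment 1 or 2. HSP90AA1, the inducible cytosolic chaperone, fell by 0.57 ± 0.08 and DNAJB1, a cochaperone, rose by 0.69 ± 0.12. Among apoptosis genes 9 of 34 rose (26.5%) and 8 fell (23.5%). TNFRSF10A, a death receptor of TRAIL, was above background on 3 of 3 siIPMK + MMC arrays and 0 of 3 siCONTROL + MMC arrays, at least 2.32-fold higher (adjusted p = 0.000714), and CASP4, an inflammatory caspase, changed by 0.88 ± 0.17 (adjusted p = 0.00124). The falls of that list numbered 2 with median scaling, 4 without the siIPMK + MMC array of experiment 3, and 5 without that of experiment 2 or the siCONTROL + MMC array of experiment 2 or 3. Of 39 RAB and membrane traffic genes 11 rose (28.2%) and 8 fell (20.5%), or 7 rose without the siIPMK + MMC array of experiment 2, with RAB15, of endosomal recycling, at 1.67 ± 0.22 (adjusted p = 0.00013) and RAB27A, of secretory granules, at -1.05 ± 0.18 (adjusted p = 0.000647).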
